A study of Komagataella phaffii with 32 samples.

Results

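Of the 5040 genes of the yeast Komagataella phaffii (also called Pichia pastoris) in the deposited expression table, 68 encode nuclear parts of the respiratory chain and of the mitochondrial ATP synthase, or factors that build them. The rule that chose them reads names and descriptions: 41 have a gene name that begins with COX, QCR, CYC, CYT or ATP, or is RIP1 or COR1, and 27 have a description that contains both NADH and ubiquinone. By role they comprise 24 subunits of complex I and 2 complex I assembly factors, the alternative NADH dehydrogenase gene NDE1, 9 genes of complex III, the cytochrome c gene CYC1, 3 genes for attaching heme to c-type cytochromes, 7 subunits and 5 assembly factors of complex IV, 10 subunits and 5 assembly factors of the ATP synthase, and CYC8. CYC8 encodes a general transcriptional corepressor and is present only because of its prefix. The table covers the 4 nuclear chromosomes, and the mitochondrially encoded subunits were not analysed here.

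The 3 strains were a crz1 mutant (PJA-001), a rim101 mutant (PJA-007) and the isogenic wild type X-33 (WT). CRZ1 and RIM101 encode transcription factors that act, in yeasts, in calcium and in alkaline pH signalling. All cultures grew in YP medium with 20 g/L glycerol at 28 °C, were grown to an OD600 of about 0.6, spun down and resuspended in medium with 50 mM TAPS buffer. Libraries were taken at T0 in medium at pH 5.5 and after 15, 30 and 60 min (T15, T30 and T60) at pH 8.0, with 3 libraries per time for crz1 and WT and 2 for rim101, 32 in all. No later library was taken at pH 5.5, so pH, time and growth after resuspension cannot be told apart. The labels number the replicates without saying that they came from separate cultures, so p-values measure the spread between these samples, which may be technical.

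Oxidative phosphorylation passes electrons from NADH through complex I to ubiquinone, on through complex III and the small soluble protein cytochrome c to complex IV, which reduces oxygen. Complexes I, III and IV pump protons out of the matrix, and the ATP synthase uses the returning protons to make ATP. Unlike Saccharomyces cerevisiae, K. phaffii has a complex I, and glycerol is a carbon source that it respires. Levels are given in RPKM, that is reads divided by gene length and by the mapped reads of the library, which measure a share of a library's mRNA and not an amount per cell. Changes are on the log2(RPKM + 1) scale, tested with limma in 1 model over all 32 libraries. A gene is said to have risen or fallen where its adjusted p (Benjamini-Hochberg over the 4226 genes with a mean of at least 1 RPKM) was under 0.05. All 68 genes passed that filter.

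Sequencing depth, inferred from how far apart the low RPKM lie in a library, was 4930000 to 16500000 reads in 30 libraries, and in 2 libraries the values did not give it. In 9 libraries the median gene lay at 46.6 to 56.6 RPKM, against 21.0 to 35.4 RPKM in the other 23. These higher-median libraries were crz1 T15, T30 and T60 replicate 1, rim101 T15 replicate 2, both rim101 T30 libraries, WT T30 replicate 1 and WT T60 replicates 1 and 2, so all of them came after T0. As a check of the labels, RIM101 averaged 27.0 to 33.2 RPKM at T15, T30 and T60 in rim101 and 126 to 133 RPKM in WT, while at T0 it averaged 28.7 ± 3.85 RPKM in rim101 (SD, n = 2) and 36.3 ± 13.8 RPKM in WT (SD, n = 3). CRZ1 averaged 27.8 to 39.3 RPKM over the 4 times in crz1 and 20.1 to 32.7 RPKM in WT, so its mRNA level did not mark the crz1 libraries. WT T0 replicate 2 stood apart among its group, with 1734 RPKM of the complex III gene QCR9 where the other WT T0 libraries had 218 and 231 RPKM.

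Among the 68 genes the largest fall at T30 in each strain was that of CYC1, which encodes cytochrome c and lies on chromosome 4 at positions 42361 to 42693 on the plus strand. In crz1 its level was 4037, 3577 and 4190 RPKM at T0, 1545, 1800 and 2194 RPKM at T15, 777, 703 and 576 RPKM at T30 and 1738, 1043 and 1092 RPKM at T60. In rim101 it was 3898 and 3625 RPKM at T0, 1537 and 1102 RPKM at T15, 733 and 865 RPKM at T30 and 1821 and 1681 RPKM at T60. In WT it was 4079, 5018 and 4061 RPKM at T0, 1910, 1810 and 1893 RPKM at T15, 1084, 997 and 987 RPKM at T30 and 1957, 1956 and 1303 RPKM at T60. In every strain each later library lay below each T0 library, and the T30 libraries were the lowest of the 4 times.

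The log2 change of CYC1 at T15, T30 and T60 was -1.10, -2.53 and -1.64 in crz1 (SE 0.19 each), -1.53, -2.24 and -1.10 in rim101 (SE 0.23 each) and -1.22, -2.09 and -1.35 in WT (SE 0.19 each). The highest limma adjusted p among these 9 values was 0.00532, at T60 in rim101. CYC1 was the only one of the 68 genes that fell at all 3 times in each strain. Fitted on the groups compared alone, the adjusted p was 0.0521 for WT T60, 0.241 for rim101 T15 and 0.069 for rim101 T60, and the rim101 T60 call was also lost without rim101 T0 replicate 1 (0.0742) or rim101 T60 replicate 2 (0.0697). In the authors' deposited table, CYC1 had a log2 fold change over WT T0 of -3.21 in crz1 T30, -3.45 in rim101 T30 and -2.59 in WT T30, each of those groups being set against the WT T0 libraries.

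**Figure D1:**
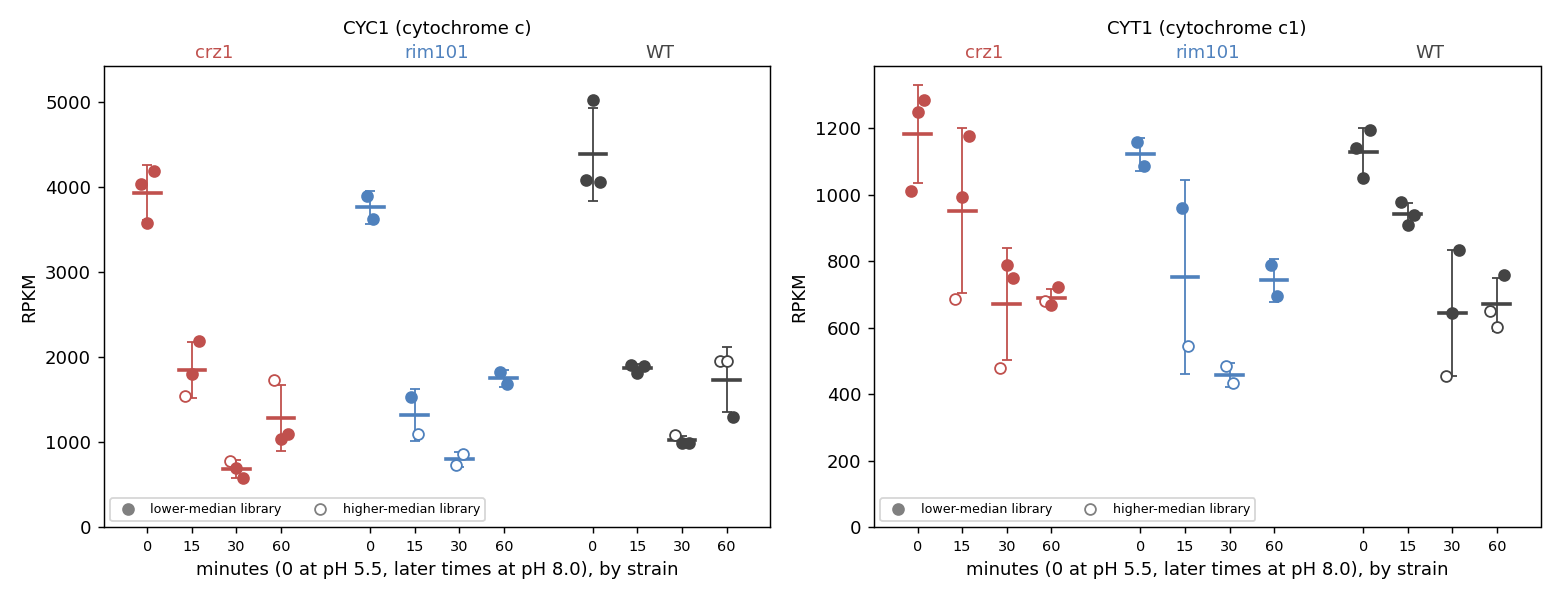
RPKM of CYC1 (left) and CYT1 (right) in each library, by strain and minutes, with 1 point per library, a bar at the group mean and whiskers of 1 SD; open points are the 9 higher-median libraries. All CYC1 points after 0 min lie at or below 2194 RPKM and all points at 0 min at or above 3577 RPKM, whether open or filled.

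The summed level of the ATP synthase subunits moved in another way. Over 10 genes, it was 12190 to 14714 RPKM as a mean of each group, and the group means after T0 were 0.916 to 1.09 times the T0 mean of the same strain. Single subunits within the sum moved in opposite ways. At T30 in rim101 ATP2 had 2033 and 2113 RPKM, against 3936 and 3573 RPKM at T0. There ATP7 had 1659 and 1733 RPKM, against 894 and 919 RPKM at T0. Set against that sum within each library, which does not depend on how a library is scaled and was chosen after the values were seen, CYC1 was 28.2%, 13.1%, 4.83% and 8.80% at T0, T15, T30 and T60 in crz1. It was 28.3%, 10.2%, 6.54% and 12.9% in rim101 and 34.5%, 14.2%, 7.78% and 12.5% in WT. At each later time no library overlapped the T0 libraries of its strain, which in an exact two-sided permutation test gives the smallest p that 3 libraries against 3 can reach, 0.1, and 0.333 for 2 against 2.

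Of the genes for attaching heme to c-type cytochromes, CYC3 fell in the model over all libraries. CYC3, the gene of the heme lyase that acts on cytochrome c in S. cerevisiae, fell by 0.36 and 0.37 on the log2 scale at T15 and T30 in crz1 (SE 0.11 each), by 0.61 at T30 in rim101 (SE 0.14) and by 0.42 and 0.47 at T15 and T30 in WT (SE 0.11 each), with limma adjusted p of 0.00408 to 0.0235. CYT2, named for the heme lyase of cytochrome c1, passed in no comparison, and its log2 change lay between -0.24 and 0.14 over all strains and times. Under other scalings it fell: at T30 its log2 change was -0.53 in crz1, -0.62 in rim101 and -0.47 in WT under the median-ratio setting. Quantile normalization gave -0.50, -0.66 and -0.40 in the same strains, and these 6 values had limma adjusted p of 0.00368 to 0.0491. The T15 calls of CYC3 in crz1 and WT were lost under both of these scalings, and its T30 call in crz1 under quantile normalization. At T30 in rim101 the CYC3 call was lost without rim101 T0 replicate 1 or T30 replicate 1. A difference between CYC3 and CYT2 was not tested. CYC2 was low, at 5.91 RPKM over all libraries, and passed in no comparison. In level, CYC3 at T30 had 185, 191 and 191 RPKM in crz1 against 224, 259 and 254 RPKM at T0, and 135 and 158 RPKM in rim101 against 230 and 217 RPKM at T0, with no overlap between the times.

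Complex I, which oxidises matrix NADH, had the most genes that fell. At T30 the fall passed for 10 of 24 subunits in crz1, 5 of 24 in rim101 and 10 of 24 in WT, and none of the 24 rose in any strain at any time. Fitted on only the 2 groups compared, 9 fell in crz1, 8 fell and 5 rose in rim101, and none passed in WT. The 10 WT calls were thus all lost there. In those fits 5.06%, 6.63% and 1.14% of all genes fell in crz1, rim101 and WT. The share of all genes that rose is not given for them, so the 5 rises are not read as a result about complex I. Among all 4226 genes tested at T30, 5.28% fell in crz1, 4.64% in rim101 and 4.07% in WT, and 16.8%, 23.5% and 24.1% rose. The median log2 change of the 24 subunits at T30 was -0.77 in crz1, -0.10 in rim101 and -0.61 in WT, while the median of all genes tested was 0.43, 0.85 and 0.62.

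Of the complex I genes 5 fell at T30 in each of the 3 strains, namely NUAM, NUBM, NUGM, NUHM and PAS_chr3_0585, which was annotated as a 20 kDa subunit-like protein. The share of all genes that fell in all 3 strains is not given here. NUAM, NUBM, NUGM and NUHM are named after the Yarrowia lipolytica core subunits of the arm that reaches into the matrix and holds the NADH oxidation site. At T30 NUAM had 162, 197 and 194 RPKM in crz1, against 356, 431 and 420 RPKM at T0. It had 172 and 123 RPKM at T30 in rim101, against 364 RPKM in both T0 libraries, and 150, 195 and 202.2 RPKM at T30 in WT, against 343, 205 and 352 RPKM at T0. Each T30 library lay below each T0 library of its strain, in WT by a narrow margin because of T0 replicate 2.

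The log2 change of NUAM at T30 was -1.12 (SE 0.22) in crz1, -1.32 (SE 0.27) in rim101 and -0.69 (SE 0.22) in WT, with limma adjusted p of 0.000526, 0.00145 and 0.0207. Without the higher-median libraries the WT value was -0.55, with an adjusted p of 0.0675, and the crz1 value was -1.03. PAS_chr3_0585 changed by -0.89 (SE 0.23), -1.40 (SE 0.28) and -0.83 (SE 0.23) in crz1, rim101 and WT. NUBM changed by -0.98, -0.83 and -0.62, NUGM by -0.96, -0.67 and -0.63, and NUHM by -0.92, -1.01 and -0.66 in the same strains. The other 5 subunits that fell at T30 in both crz1 and WT were N7BM, NB8M, NIDM, NUPM and NUSM. Their log2 change was -0.75 to -0.89 in crz1 and -0.64 to -0.91 in WT, and in rim101 it was -0.34 to -0.57 and did not pass. Without WT T0 replicate 2 the WT calls of N7BM, NIDM, NUPM and NUSM were lost, and that of NB8M held. N7BM had 717 RPKM in that library, against 402 and 367 RPKM in the other WT T0 libraries. The WT call of NUPM was lost under 8 of 15 alternatives.

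At T60 the fall passed for 5 complex I subunits in crz1 (NIDM, NUBM, NUGM, NUHM and PAS_chr3_0585). It passed for none in rim101 and for 2 in WT (NB8M and PAS_chr3_0585). The NB8M call was lost without WT T0 replicate 2. Of all genes tested 5.4%, 1.14% and 4.61% fell at T60 in crz1, rim101 and WT. The missed threshold in rim101 does not show a return to T0. There the complex I subunits summed to 4700 and 4893 RPKM at T60, against 6425 and 6959 RPKM at T0. The mean sum at T60 was 0.785, 0.717 and 0.976 times that at T0 in crz1, rim101 and WT. Only in rim101 did the T60 sums lie apart from the T0 sums. In WT at T15 the 2 that fell were N7BM, at -0.74 (SE 0.25), and PAS_chr2-1_0131, at -1.10 (SE 0.38), where 5.18% of all genes fell. The N7BM call was lost under 6 of 14 alternatives, among them WT T0 replicate 2 or any WT T15 library left out. The PAS_chr2-1_0131 call was lost under 7 of 14, among them any 1 of the compared libraries left out. PAS_chr2-1_0131, an alpha subcomplex subunit by its description, had 19.3, 20.9 and 18.05 RPKM at T15 in WT, against 42.6, 48.8 and 37.4 RPKM at T0, and its 2 other WT times did not pass. In crz1 at T15 NUAM alone fell, at -0.67 (SE 0.22), where 8.33% of all genes fell. That call was lost under 7 of 15 alternatives, among them median-ratio scaling and quantile normalization. NUAM, NUBM, NUGM, NUHM, NIDM, NUPM and NUSM, and likewise COR1 and ATP3, are named because they passed, after their values were seen.

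**Figure D2:**
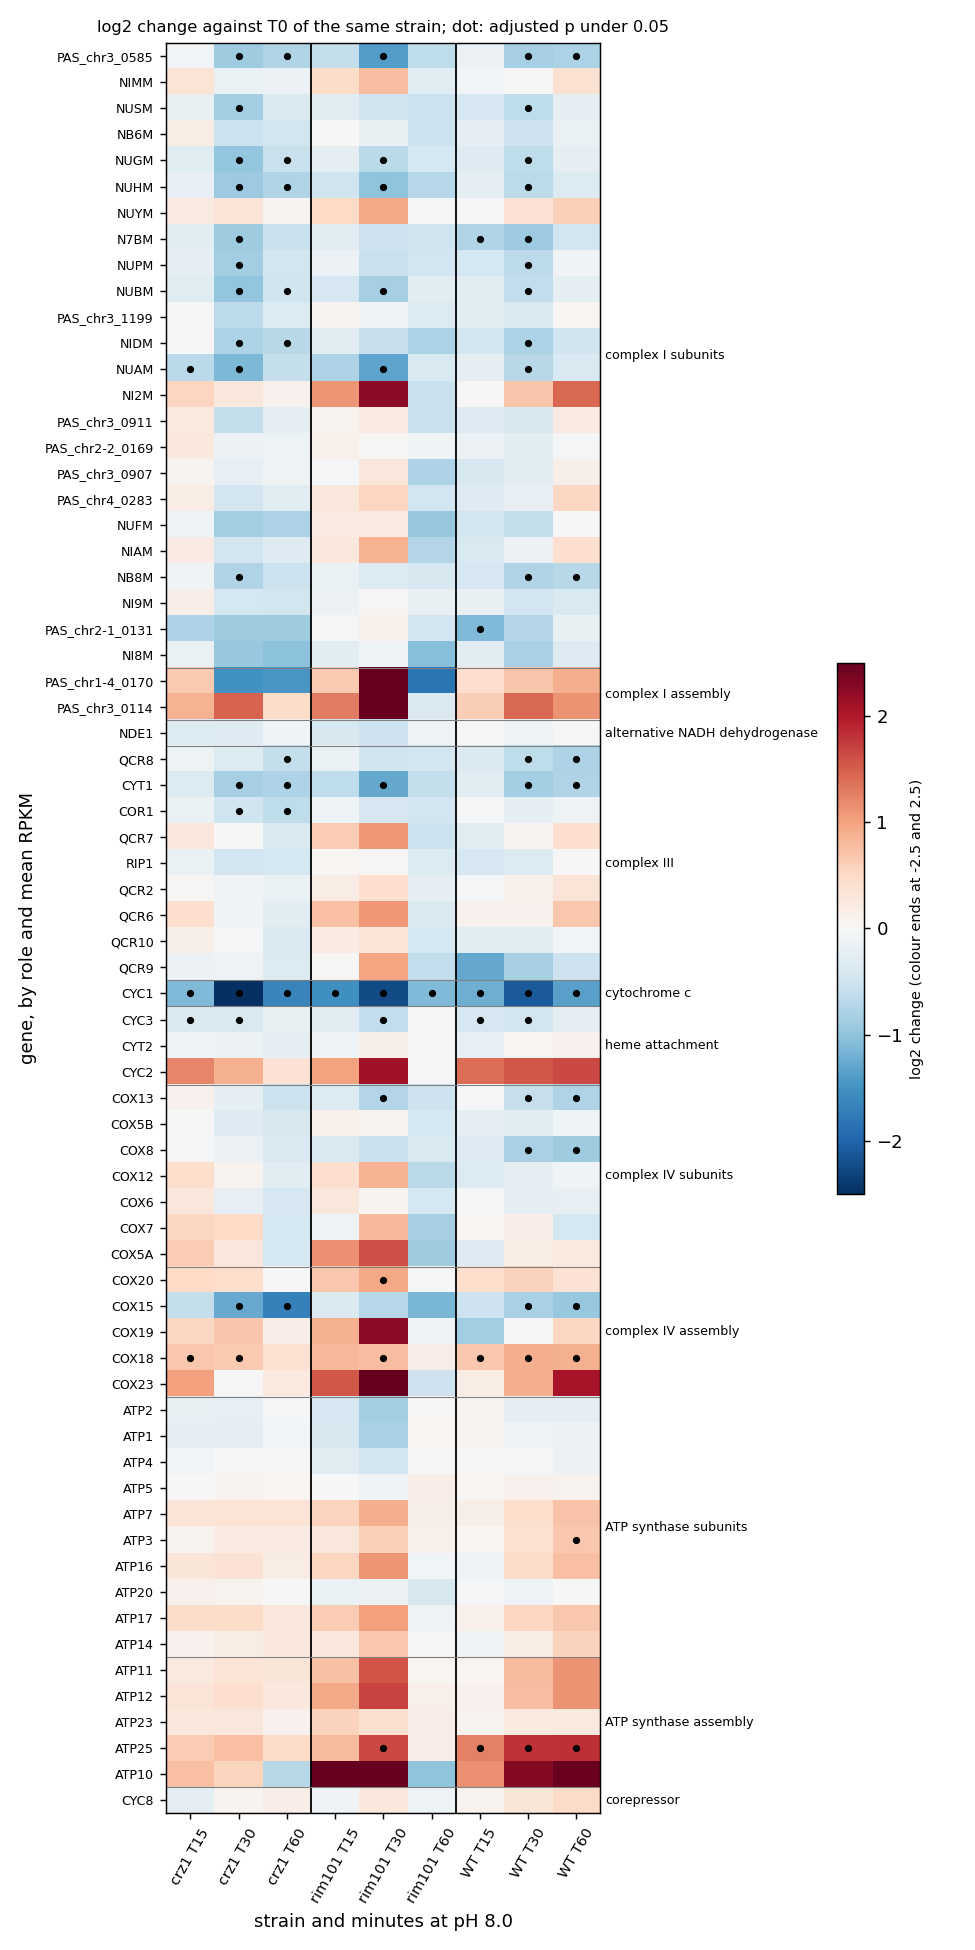
Log2 change against T0 of the same strain for each of the 68 genes (rows, by role and then by mean RPKM) in crz1, rim101 and WT at 15, 30 and 60 min (columns); blue is lower than T0, red is higher, and a dot marks an adjusted p under 0.05. The CYC1 row is blue with a dot in all 9 columns, and blue dots in complex I gather in the T30 columns of crz1 and WT.

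NDE1, which encodes an alternative NADH dehydrogenase that feeds electrons to ubiquinone without pumping protons, passed in no comparison. Its log2 change at T30 was -0.33 in crz1 (SE 0.20), -0.51 in rim101 (SE 0.24) and -0.12 in WT (SE 0.20). The pair of complex I assembly genes, PAS_chr1-4_0170 and PAS_chr3_0114, was expressed at 13.2 and 11.7 RPKM over all libraries and likewise passed in no comparison.

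In complex III, 3 of 9 genes fell in some strain. CYT1, the gene of cytochrome c1, which hands electrons to cytochrome c, had 480, 787 and 750 RPKM at T30 in crz1, against 1012, 1248 and 1283 RPKM at T0. In rim101 it had 484 and 433 RPKM at T30, against 1156 and 1084 RPKM at T0, and in WT it had 456, 644 and 833 RPKM at T30, against 1140, 1051 and 1195 RPKM at T0. The T30 libraries lay below the T0 libraries in every strain, and the lowest crz1 and WT values at T30 were those of the higher-median libraries. The log2 change at T30 was -0.84 (SE 0.22), -1.29 (SE 0.27) and -0.85 (SE 0.22) in crz1, rim101 and WT, with limma adjusted p of 0.0077, 0.00205 and 0.00641. Without the higher-median libraries it was -0.61 in crz1 and -0.62 in WT, with limma adjusted p of 0.00389 and 0.0036. At T60 CYT1 fell by 0.77 in crz1 and by 0.76 in WT on the log2 scale, and its value of -0.60 in rim101 did not pass.

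QCR8, a small subunit of complex III, fell at T60 in crz1 (-0.60) and at T30 and T60 in WT (-0.64 and -0.77, SE 0.17 each). Its T30 call in WT was lost without WT T0 replicate 2. COR1, a core subunit, fell at T30 and T60 in crz1 (-0.50 and -0.64, SE 0.16 each), and its WT values of -0.22 and -0.13 did not pass. The crz1 T30 call was lost under 5 of 15 alternatives, each with 1 library left out. With median-ratio scaling COR1 also fell at T30 and T60 in WT (-0.75 and -0.72) and at T30 in rim101 (-1.18). These values had limma adjusted p of 0.000743 to 0.00594. Under quantile normalization COR1 fell at T30 in rim101 (-0.61, limma adjusted p of 0.0188) and did not pass in WT. The Rieske iron-sulfur protein gene RIP1, QCR2, QCR6, QCR7, QCR9 and QCR10 passed in no response. RIP1 lay between -0.48 and 0.05 on the log2 scale over all strains and times. With median-ratio scaling, 5, 4 and 6 of the 9 genes fell at T30 in crz1, rim101 and WT, with RIP1 among them in each strain (-0.73 in rim101, limma adjusted p of 0.0195) and QCR2 in WT (-0.40, adjusted p of 0.0166).

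In complex IV 2 of 7 subunit genes, COX13 and COX8, fell. COX13 fell at T30 in rim101 (-0.73, SE 0.26) and at T30 and T60 in WT (-0.58 and -0.76, SE 0.21 each). The rim101 call was lost under 5 of 12 alternatives, among them any 1 of the compared libraries left out. The WT T30 call was lost under 9 of 15, among them median-ratio scaling and the fit without the higher-median libraries (limma adjusted p of 0.158). The WT T60 call was lost under 3 of 15, among them the fit without the higher-median libraries. At T60 that leaves 1 WT library, replicate 3, which is assumed to vary like the other groups. COX8 fell at T30 and T60 in WT (-0.80 and -0.89, SE 0.18 each). COX8 had 877, 814 and 939 RPKM at T30 in WT, against 1118, 2097 and 1521 RPKM at T0, and its crz1 T30 libraries of 964, 1013 and 879 RPKM overlapped the crz1 T0 libraries of 955, 1101 and 1110 RPKM. That COX8 passed in WT and not in the mutants is no measured difference between strains, since the test of the difference passed for none of the 68 genes. No complex IV subunit passed in crz1. With median-ratio scaling, 2, 4 and 3 of the 7 fell at T30 in crz1, rim101 and WT, among them COX5B in each strain (-0.68 in rim101, limma adjusted p of 0.0123), and 5 fell at T60 in WT.

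Among the complex IV assembly genes the direction was mixed. COX15, which takes part in making heme A, the cofactor of complex IV, had 41.2, 34.1 and 39.1 RPKM at T30 and 39.4, 23.7 and 24.3 RPKM at T60 in crz1, against 105, 90.9 and 84.7 RPKM at T0. Its log2 change at T30 and T60 was -1.27 and -1.68 in crz1 (SE 0.30 each, limma adjusted p of 0.00308 and 0.000349) and -0.81 and -0.95 in WT (SE 0.30 each, 0.0433 and 0.0206). In rim101 it was -0.72 and -1.14 (SE 0.36 each) and did not pass. The crz1 calls of COX15 held under all 15 alternatives, and the WT calls were lost under 7 and 5 of 15.

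COX18, which inserts a part of the mitochondrially encoded subunit Cox2 into the membrane in S. cerevisiae, rose at T15 and T30 in crz1 (0.67 and 0.66), at T30 in rim101 (0.77) and at all 3 times in WT (0.68, 0.92 and 0.88). Its T0 libraries held 15.3 to 20.9 RPKM in crz1, 14.2 and 21.5 RPKM in rim101 and 14.0 to 16.6 RPKM in WT. These rises were below the shift of all genes at T30 in rim101 (0.85) and above it in crz1 and WT, and in every strain the T30 calls were lost under median-ratio scaling and under quantile normalization, where the rim101 value at T30 turned to -0.33 under quantile normalization. COX20, another factor for Cox2, rose at T30 in rim101 (0.97, SE 0.28), where the shift of all genes was 0.85. The COX20 call was lost under median-ratio scaling and without rim101 T0 replicate 1, T30 replicate 1 or T30 replicate 2.

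Of the ATP synthase subunits none fell in the model over all libraries, and ATP3, which encodes the central stalk subunit gamma, was the only one to rise, at T60 in WT (0.67, SE 0.24, limma adjusted p of 0.0388). It had 1372, 1241 and 766 RPKM there, against 686, 732 and 647 RPKM at T0, so the higher pair were the higher-median libraries, and without those, with replicate 3 as the only WT T60 library, the call was lost. The catalytic subunit gene ATP2 had 2382, 4018 and 3784 RPKM at T30 in crz1, against 3506, 3824 and 4160 RPKM at T0. It had 2033 and 2113 RPKM at T30 in rim101, against 3936 and 3573 RPKM at T0, and 2064, 3207 and 3755 RPKM at T30 in WT, against 3944, 2588 and 3980 RPKM at T0. The low T30 values of ATP2 were those of the higher-median libraries in every strain, and WT T0 replicate 2 was low as well; the log2 change in rim101, where both T30 libraries are of that kind, was -0.86 with an adjusted p of 0.0574. ATP1, the alpha subunit gene, followed the same libraries, at -0.81 in rim101 (adjusted p of 0.0618) and -0.25 and -0.13 in crz1 and WT. Under alternatives some subunits fell at T30 in rim101: ATP5 and ATP20 with median-ratio scaling (-0.87 and -0.90, limma adjusted p of 0.0473 and 0.0386), ATP1 with quantile normalization (-0.89, 0.047) and 3 subunits, with 5 that rose, in a fit of only the rim101 T30 and T0 libraries. In that last fit 6.63% of all genes fell, and the share of all genes that rose is not given here. In the authors' deposited table, 5 of the 10 subunits were lower in rim101 T30 than in WT T0, with log2 fold changes of -1.69 for ATP1, -1.74 for ATP2, -1.40 for ATP4, -1.06 for ATP5 and -1.07 for ATP20.

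Of the ATP synthase assembly genes ATP25, known in S. cerevisiae for stabilising a mitochondrial mRNA of the enzyme, rose at all 3 times in WT (1.26, 1.81 and 1.83, SE 0.44 each) and at T30 in rim101 (1.65, SE 0.54). The ATP25 calls in WT at T15, T30 and T60 were lost under 7 of 14, 1 of 15 and 3 of 15 alternatives. The rim101 call was lost under 6 of 12, among them median-ratio scaling and quantile normalization. The level of ATP25 was low, 4.92, 2.06 and 5.19 RPKM at T0 and 25.7, 14.8 and 10.4 RPKM at T30 in WT, and the crz1 values of 0.64, 0.74 and 0.47 did not pass. ATP10 and COX23 had large values that did not pass, at 4.36 and 4.16 for T30 in rim101. ATP10 had 45.8 and 35.3 RPKM there, against 3.02 and 0 RPKM at T0, and 34.0, 5.98 and 0 RPKM at T30 in WT, against 0, 0 and 1.09 RPKM at T0. Its high values were again those of the higher-median libraries, and the part of those libraries in it was not tested.

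Counted over all 68 genes, 3, 15 and 10 fell and 1, 1 and 0 rose at T15, T30 and T60 in crz1, where 8.33%, 5.28% and 5.4% of all genes tested fell and 14.6%, 16.8% and 12.4% rose. In rim101 1, 9 and 1 fell and 0, 3 and 0 rose, where 2.7%, 4.64% and 1.14% of all genes fell and 5.47%, 23.5% and 2.72% rose. In WT 4, 17 and 8 fell and 2, 2 and 3 rose, where 5.18%, 4.07% and 4.61% of all genes fell and 13.4%, 24.1% and 26.9% rose. At T15 the share that fell was near the background or below it. At T30 it was above the background in each strain and at T60 in crz1 and WT, while the share that rose was below the background in each comparison. At T30 14 genes fell in both crz1 and WT and 8 in all 3 strains, and those 8 were CYC1, CYC3, CYT1 and the 5 complex I genes named above. Over all times and strains 45 of the 68 genes passed in no response. No share of all genes tested is given here for genes that fell in more than 1 strain or passed in no response. These overlaps are therefore not read as a result about the 68 genes.

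The median gene of the whole table moved up at each time, by 0.24, 0.43 and 0.29 on the log2 scale in crz1, by 0.41, 0.85 and 0.13 in rim101 and by 0.17, 0.62 and 0.65 in WT. Relative to it the median of the 68 genes was lower at each time and in each strain: their own medians were 0.10, -0.19 and -0.31 in crz1, 0.06, 0.18 and -0.40 in rim101 and -0.16, -0.21 and 0.00 in WT. With median-ratio scaling, which takes most of that shift out, the count at T30 was 28 lower and 0 higher in crz1, 26 lower and 0 higher in rim101 and 31 lower and 1 higher in WT, where 8.83%, 8.87% and 8.57% of all genes were lower and 11.6%, 8.47% and 13.6% higher. At T60 under that scaling it was 24 lower and 0 higher, 6 lower and 0 higher, and 28 lower and 1 higher, in the same order, where 8.54%, 1.92% and 11.0% of all genes were lower and 10.4%, 2.39% and 13.2% higher. At T15 in WT it was 9 lower and 2 higher, where 9.06% of all genes were lower and 14.0% higher.

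Single libraries moved several of these counts. Of the 12 genes called at T30 in rim101, 6 were called without rim101 T0 replicate 1 and 7 without rim101 T30 replicate 1. At T60 the 10 in crz1 became 6 without crz1 T0 replicate 3 and 4 without crz1 T60 replicate 2, and the 1 in rim101 became 0 without rim101 T0 replicate 1 or T60 replicate 2 and 2 without T0 replicate 2. The 11 in WT at T60 became 7 without WT T60 replicate 2 and 20, of which 13 higher, without WT T60 replicate 3. At T15 the 4 in crz1 became 2 without T0 replicate 2, and 1 without T0 replicate 3 or T15 replicate 1, and the 1 in rim101 became 2 without T0 replicate 2 and 3 without T15 replicate 1. The 6 in WT at T15 became 1 without T0 replicate 2 or T15 replicate 3, 3 without T0 replicate 3 or T15 replicate 2, and 2 without T15 replicate 1.

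Summed over each complex, the levels split by kind of library. The 24 complex I subunits summed to 8027, 4174 and 4055 RPKM at T60 in crz1, against 6906, 6990 and 6824 RPKM at T0, to 4700 and 4893 RPKM in rim101, against 6425 and 6959 RPKM at T0, and to 8458, 7757 and 4190 RPKM in WT, against 6215, 8472 and 6217 RPKM at T0. In crz1 and WT every high T60 value was that of a higher-median library. Over all strains the sum was 5878 to 8458 RPKM in the 9 higher-median libraries, 3796 to 6807 RPKM in the 15 other libraries after T0 and 6215 to 8472 RPKM in the 8 T0 libraries. The sums of complex III were 6442 to 8556 RPKM, 3800 to 6622 RPKM and 5950 to 9323 RPKM in the same sets, and those of complex IV 6252 to 8192 RPKM, 4236 to 7244 RPKM and 6369 to 9798 RPKM.

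For CYC1 the higher-median libraries held 733 to 1957 RPKM, the other later libraries 576 to 2194 RPKM and the T0 libraries 3577 to 5018 RPKM. Within groups they were above the other libraries at T30 and T60 in crz1 and WT and below them at T15 in crz1 and rim101, and both kinds lay below T0. Without them the log2 change of CYC1 at T60 was -1.88 in crz1 and -1.74 in WT. Without the higher-median libraries 25 of the 68 genes fell and none rose at T60 in crz1, among them 15 of 24 complex I subunits and 6 of 9 complex III genes, where 6.55% of all genes fell and 10.8% rose. In the same fit 17 and 14 complex I subunits fell at T30 in crz1 and WT, where 5.58% and 3.81% of all genes fell. At T60 in WT 10 fell, where 2.18% of all genes fell, but WT T60 then holds replicate 3 alone and the spread comes from the other groups. For rim101 T30 no library is left in that fit.

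**Figure D3:**
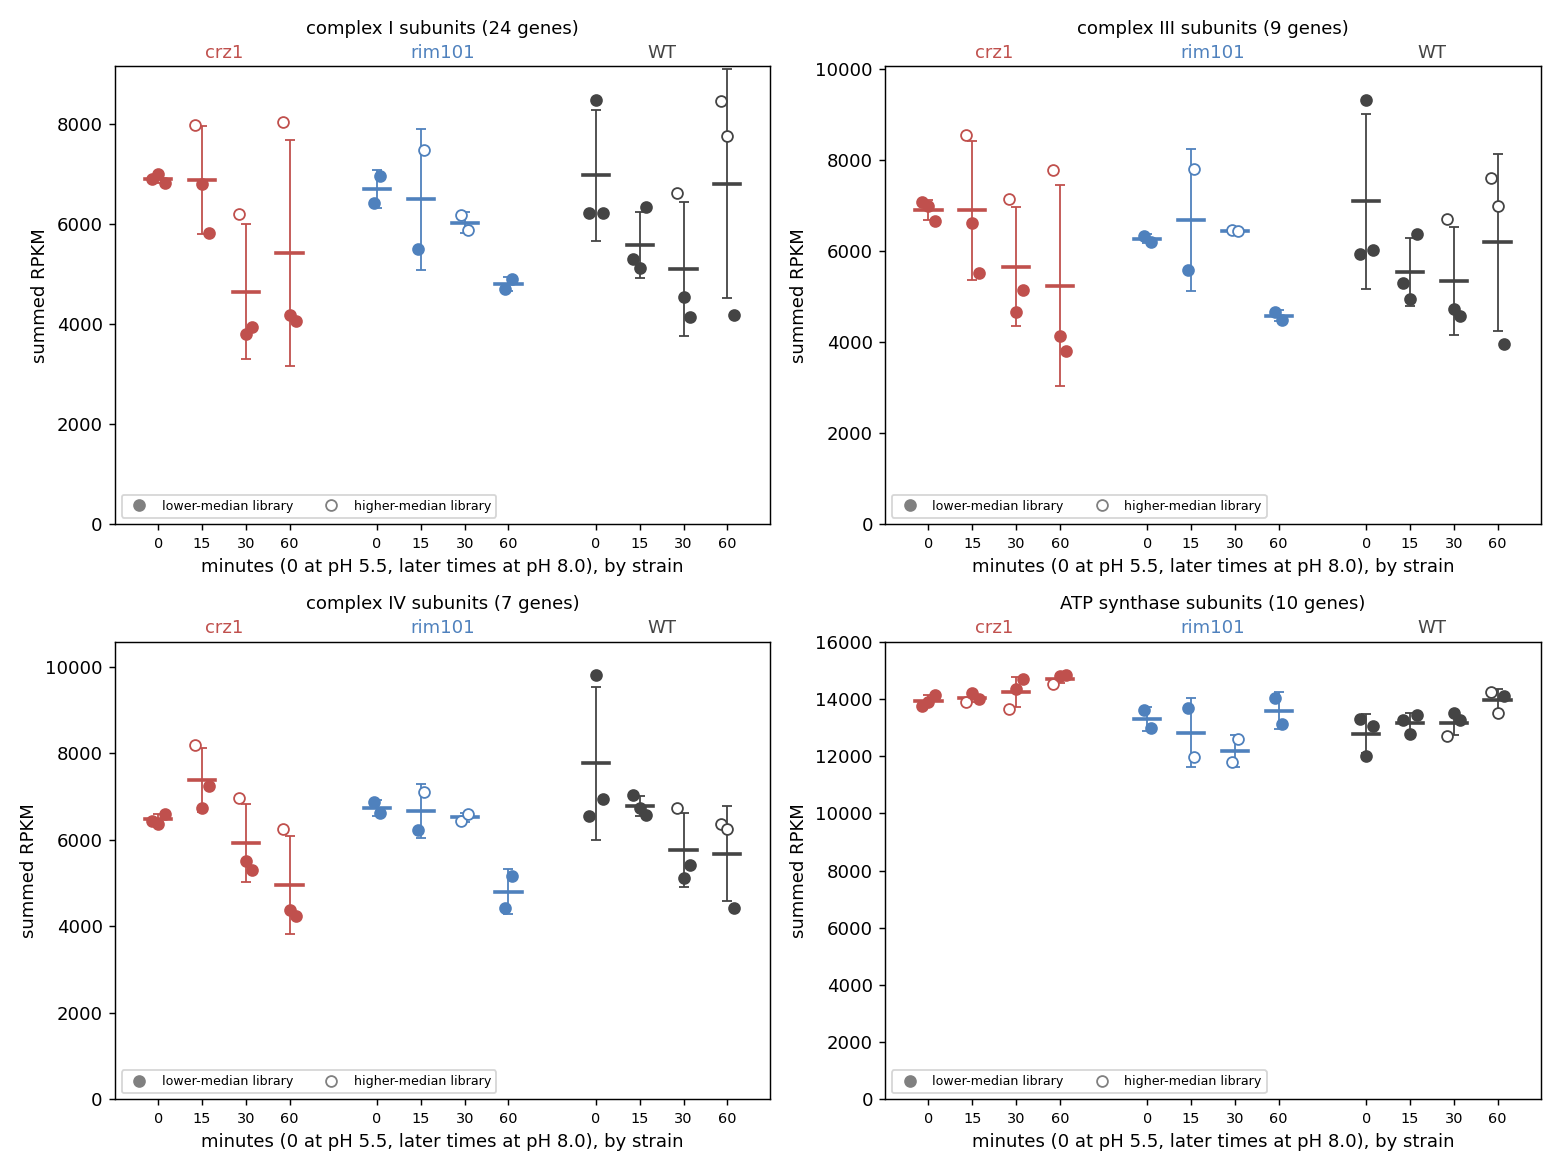
Summed RPKM of the subunits of complexes I, III and IV and of the ATP synthase in each library, by strain and minutes, with 1 point per library, a bar at the group mean and whiskers of 1 SD; open points are the 9 higher-median libraries. In complexes I and III the open points of crz1 and WT lie above the filled points of the same group, and the ATP synthase sums stay between 11792 and 14826 RPKM.

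None of the 68 genes passed the threshold between a mutant and WT. In 8 direct comparisons at the 4 times and in 6 tests of a difference in response, limma made 0 calls among them at an adjusted p under 0.05, also under each alternative run and with each library left out in turn. Unadjusted p under 0.05 was met by 0 to 6 of the 68 genes per comparison. Over all 4226 genes the share called was 0.071%, 0.568%, 0.426% and 0.26% for crz1 against WT at T0, T15, T30 and T60 and 0.118%, 1.06%, 1.51% and 1.66% for rim101 against WT. For the differences in response at T15, T30 and T60 it was 0.0%, 0.0237% and 0.0% for crz1 and 0.45%, 0.781% and 0.568% for rim101. The lowest adjusted p among the 68 genes in the direct comparisons was 0.137, for CYC3 in rim101 against WT at T30.

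For CYC1 the size of a strain difference is bounded. At T30 the mean level was 685 ± 102 RPKM in crz1 and 1023 ± 53.4 RPKM in WT (SD, n = 3 each), a log2 difference of -0.59 with a 95% interval of -0.98 to -0.20 before adjustment and a limma adjusted p of 0.418. It was 799 ± 93.5 RPKM in rim101 (SD, n = 2), with a log2 difference from WT of -0.36 and an interval of -0.79 to 0.07. The response of CYC1 from T0 to T30 differed from that of WT by -0.43 in crz1 (interval -0.98 to 0.12) and by -0.14 in rim101 (interval -0.76 to 0.47). These intervals leave room for differences, and the missed threshold does not show that the strains act alike.

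**Figure D4:**
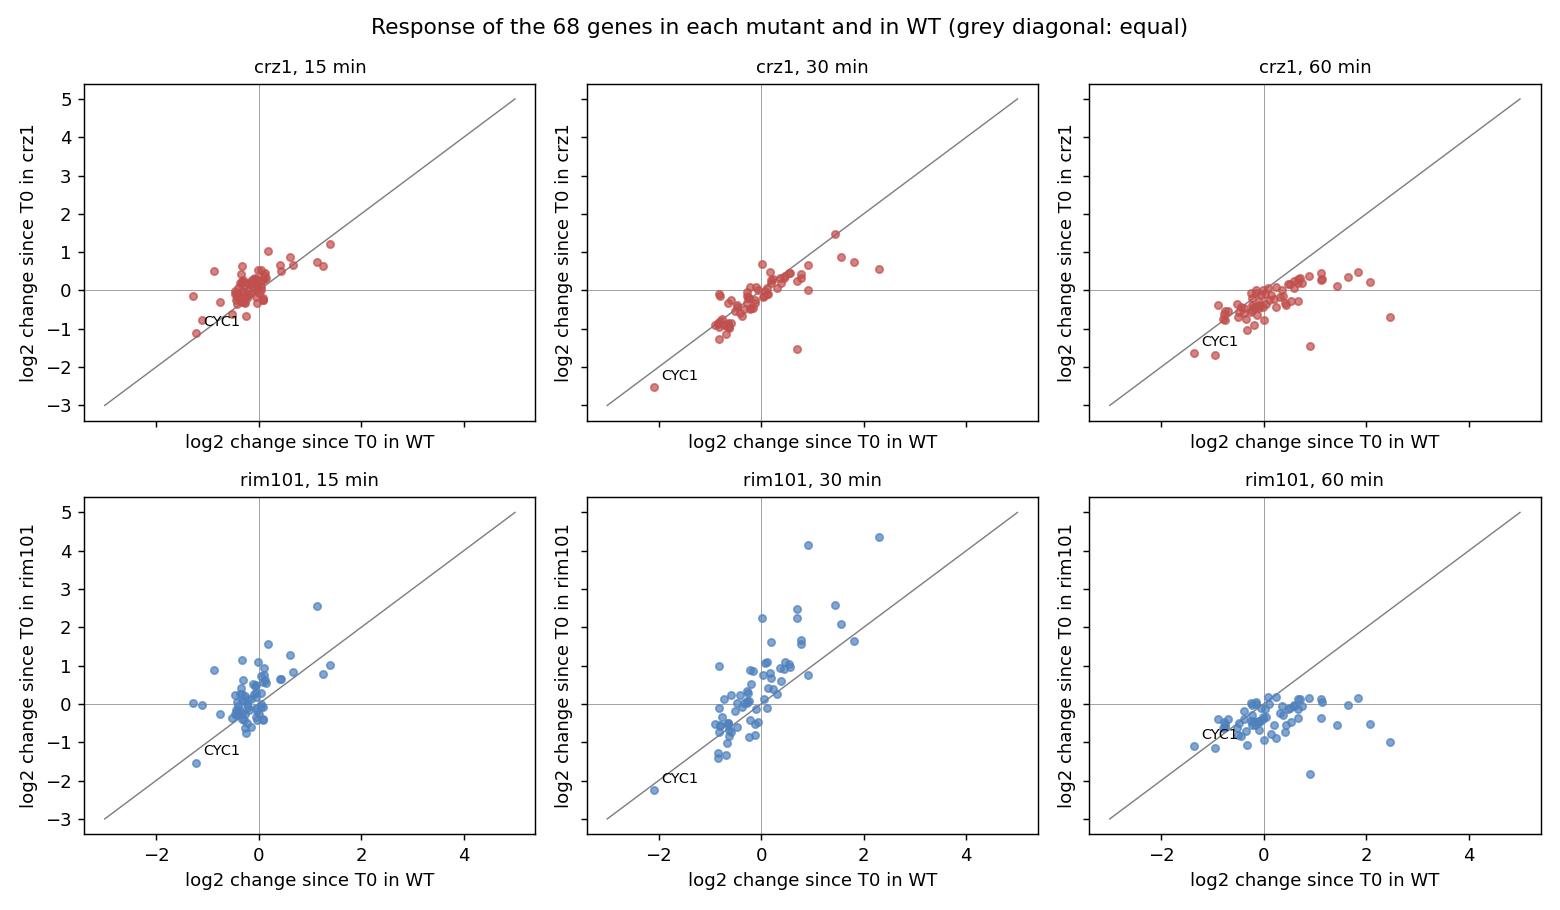
Log2 change since T0 of each of the 68 genes in a mutant (vertical axis; crz1 in the upper row, rim101 in the lower) and in WT (horizontal axis) at 15, 30 and 60 min, with 1 point per gene and a grey diagonal where both are equal. CYC1 lies at the lower left in every panel, and the points far above the diagonal for rim101 at 30 min are low-abundance genes such as ATP10 and COX23 at 4.36 and 4.16; both mutants are set against the same WT libraries.

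Other genes of the pathway, from lists drawn up with earlier results of these data known, numbered 44 with a test. Of these 3, 4 and 8 fell and 4, 4 and 1 rose at T15, T30 and T60 in crz1, 2, 4 and 1 fell and 0, 6 and 0 rose in rim101, and 3, 3 and 3 fell and 3, 5 and 4 rose in WT. None passed in a comparison of strains, which does not show that the strains act alike. The share that rose was below that of all genes tested, given above, in each comparison, and the number that fell went past 4 of 44 only at T60 in crz1. Of all genes tested 8.33%, 5.28% and 5.4% fell at T15, T30 and T60 in crz1. In rim101 it was 2.7%, 4.64% and 1.14%, and in WT 5.18%, 4.07% and 4.61%. SDH1, the gene of the flavoprotein subunit of succinate dehydrogenase (complex II), which passes electrons from succinate to ubiquinone, was lowest at T30 in each strain. It averaged 1463 ± 83.5 RPKM at T0, 490 ± 145 RPKM at T15, 171 ± 20.5 RPKM at T30 and 528 ± 75.3 RPKM at T60 in crz1 (SD, n = 3 each). In rim101 it averaged 1240 ± 428, 347 ± 194, 132 ± 10.3 and 721 ± 191 RPKM (SD, n = 2 each), and in WT 1283 ± 640, 442 ± 85.6, 174 ± 32 and 456 ± 67.5 RPKM (SD, n = 3 each). The log2 change at T30 was -3.10, -3.18 and -2.75 in the 3 strains, larger in size than that of CYC1, and at T60 in rim101 the value of -0.76 did not pass. SDH5, named for an assembly factor and the other succinate dehydrogenase gene tested, passed in no response, with log2 changes at T30 of -0.25, 0.97 and 0.09 in crz1, rim101 and WT.

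In heme synthesis, which supplies the cytochromes, 1, 2 and 2 of 8 genes rose and 3, 3 and 2 fell at T30 in crz1, rim101 and WT. At T60 0, 0 and 2 rose and 5, 1 and 1 fell. HEM13, the oxygen-using coproporphyrinogen oxidase, fell at T30, with a log2 change of -4.02 in crz1 (SE 0.45), -1.84 in rim101 (SE 0.55) and -3.08 in WT (SE 0.45). It averaged 41.8 ± 2.39 RPKM at T30 in crz1, against 734 ± 329 RPKM at T0, 124 ± 2.03 RPKM in rim101, against 633 ± 637 RPKM at T0, and 56.9 ± 9.48 RPKM in WT, against 560 ± 345 RPKM at T0, so the T0 libraries spread widely. HEM3, porphobilinogen deaminase, fell at T30, with log2 changes of -2.72, -1.42 and -1.81 in crz1, rim101 and WT. HEM15, the ferrochelatase that inserts iron, rose at T30 by 1.57, 2.62 and 1.85. HEM4 rose at T30 in rim101 and WT (2.54 and 2.93), from levels under 4 RPKM at T0.

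Regulators of the Hap type control respiratory genes in S. cerevisiae. Of 4 tested, 3, 2 and 2 rose at T30 in crz1, rim101 and WT, and none fell. Of all genes tested 16.8%, 23.5% and 24.1% rose there. HAP5 rose at T30 in each strain (0.95, 1.13 and 0.92), where the median of all genes was 0.43, 0.85 and 0.62. HAP3-2 was listed at 0 in every T0 library and averaged 61.8 ± 10.6, 22.1 ± 3.58 and 25.9 ± 10.5 RPKM at T30 in crz1, rim101 and WT (SD, n = 3, 2 and 3). NDE2, the other alternative NADH dehydrogenase, and the ATP synthase inhibitor gene INH1 passed in no response. The alternative oxidase gene PAS_chr3_0408, which was in no list and was looked up by its description, was listed at 0 in every T30 library of the 3 strains, against 46.6, 33.5 and 35.7 RPKM at T0 in crz1, 8.54 and 19.5 RPKM at T0 in rim101 and 50.2, 0.831 and 30.1 RPKM at T0 in WT. At T60 it was listed at 0, 5.27 and 6.38 RPKM in crz1, at 5.94 and 18.7 RPKM in rim101 and at 0.144, 9.50 and 2.75 RPKM in WT. The oxidase takes electrons from ubiquinone directly to oxygen and bypasses cytochrome c.

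In the authors' deposited table, at an adjusted p (FDR) under 0.05 against WT T0, 1, 18 and 10 of the 68 genes were lower and none higher in crz1 at T15, T30 and T60. Over the 4581 genes of that authors' deposited table, 3.47%, 4.41% and 3.01% were lower and 5.06%, 4.32% and 2.12% higher. In rim101 1, 30 and 2 of the 68 were lower and 0, 4 and 0 higher in the authors' deposited table, where 1.79%, 16.0% and 1.62% of all its genes were lower and 2.29%, 15.7% and 1.96% higher. In WT 2, 13 and 7 were lower and none higher in the authors' deposited table, where 3.3%, 3.6% and 2.88% of all its genes were lower and 4.74%, 3.58% and 1.86% higher. At T15 the shares of the 68 genes that were lower lay below those of all genes. That table sets both mutants against the same WT T0 libraries, and none of the 68 genes passed there between the T0 libraries of a mutant and those of WT.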

How the data were processed

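RNA of 32 samples was sequenced as poly-A selected, non-directional libraries, per the labels' protocols. The authors deposited RPKM values on the linear scale for 5040 genes; per the submitters' processing notes, Bowtie2 and edgeR were used (no version is named); for the build, no source used here names one. A second deposited table by the authors gives log2 fold changes, p-values and FDR of each group over WT T0, and was set beside the results only. All 5040 identifiers matched the RefSeq gene table with equal coordinates, and 92.2% of gene spans are a multiple of 3 bases, so lengths are close to the coding length. None of the 68 spans overlaps another gene.

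Genes with a mean of at least 1 RPKM (4226) were fitted on log2(RPKM + 1) with limma 3.58.1 (R 4.3.3) with an intensity trend, as 12 group means and 20 residual degrees of freedom, with 23 contrasts: 9 responses against T0, 8 of a mutant against WT and 6 differences in response. The pseudocount of 1 understates the change of low genes. p-values were adjusted by Benjamini-Hochberg over all genes of a contrast. Scripts were tested on simulated data. No count test was used, since no count table was analysed here. For depth, low RPKM were read as whole multiples of the value of 1 read, and 94.9% to 99.0% of them came within 0.1 of a whole read. The members and the lists were chosen with earlier results of these data known. Genes named by rule are, in each role, the 4 lowest and 2 highest by mean WT change among those with at least 10 RPKM, and the most abundant one. Alternatives were median-ratio scaling, quantile normalization, a pseudocount of 0.1, no filter, a minimum of 10 RPKM, only the groups compared, no trend, a replicate block, a 2-fold minimum, and leaving out each library or the 9 higher-median libraries. The replicate numbers were not shown to pair libraries, and pairing was not excluded. Deviations of libraries with the same number correlated at -0.0310 to 0.877 in crz1 (median 0.424, against -0.212 for different numbers). They correlated at 0.0869 to 0.330 in rim101 (median 0.152, against -0.152) and -0.526 to 0.819 in WT (median -0.169, against 0.0622), so not every pair was over 0.1. With 2 libraries per group, the rim101 values for different numbers are bound to be the negatives of those for the same number. The series text names the strain GS115 where the labels name X-33.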

Additional observations from a re-analysis of the deposited data

How the results depend on the processing

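Counts of the 68 genes past the threshold moved with scaling and with the libraries fitted. For quantile normalization, the replicate block and single libraries left out, no share of all genes is given here. The same holds for a 2-fold minimum, a minimum of 10 RPKM, no filter and no intensity trend. It also holds for median-ratio scaling at T15 in rim101 and for only the groups compared at T15 and T60. Those counts describe the settings and are not read as results about the 68 genes. With median-ratio scaling they were 28 and 24 at T30 and T60 in crz1, 2, 26 and 6 at T15, T30 and T60 in rim101 and 11, 32 and 29 in WT. With quantile normalization they were 18 at T60 in crz1, 3, 22 and 6 in rim101 and 19 at T60 in WT. These scalings lowered the median change of all genes by 0.12 to 0.73 and by 0.14 to 0.86 on the log2 scale. Fitted on only the groups compared, counts were 1 and 4 at T15 and T60 in crz1, 0, 45 and 0 in rim101 and 2, 1 and 0 in WT. At T30 in rim101 6.63% of all genes fell in that fit, and the share that rose is not given here. The 45 are therefore not read as a result about the 68 genes. A 2-fold minimum left 1, 3 and 2 in crz1, 6 at T30 in rim101 and 3, 2 and 2 in WT. In rim101, a minimum of 10 RPKM and no intensity trend each gave 2 at T15, and no filter gave 2 at T60. Without the higher-median libraries the count at T60 in crz1 was 25. With each replicate left out in turn the counts at T15, T30 and T60 were 1 to 5, 12 to 14 and 4 to 13 in crz1, 1 to 3, 6 to 10 and 0 to 2 in rim101, and 1 to 4, 14 to 16 and 7 to 20 in WT. With the replicate block, counts in rim101 were 2, 21 and 2; the block moved no other count by over 1.5 times. The 14 strain comparisons stayed at 0 under all settings run. Of 80 calls of named genes, 18 held under every alternative. Signs turned, past the threshold for all values listed here but that of COX18, at T30 in rim101, under median-ratio scaling for RIP1 (-0.73), COX5B (-0.68) and CYT2 (-0.62) and under quantile normalization for PAS_chr2-1_0131 (-0.89), COX18 (-0.33) and CYT2 (-0.66). They also turned in WT under median-ratio scaling for QCR2 at T30 (-0.40) and CYT2 at T30 and T60 (-0.47 each), and under quantile normalization for CYT2 (-0.40 and -0.41). The cause was not tested.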
